A study of Mus musculus with 2 samples.

Results

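The CDK inhibitors and the retinoblastoma family are 10 genes that restrain entry into S phase, and their transcription was examined in proliferating mouse myoblasts. Members were chosen by gene symbol: every RefSeq entry of Cdkn1a, Cdkn1b, Cdkn1c, Cdkn2a, Cdkn2b, Cdkn2c, Cdkn2d, Rb1, Rbl1 or Rbl2 in the deposited table of gene activity was taken, whether called active or inactive. This gave 13 entries of 9 genes among 24165 entries of 20128 symbols, and Cdkn2d had no entry. The measurements came from global run-on sequencing (GRO-seq), in which engaged RNA polymerases of isolated nuclei extend their transcripts with bromouridine (BrU) and the labelled RNA is pulled down with an anti-BrdU antibody and sequenced, so that reads report polymerases in the act of transcription and not the amount of mature RNA. All libraries were from a single group: untreated C2C12 myoblasts, an established mouse line that can fuse into myotubes, grown on 10 cm plates to 80% confluency in DMEM with fetal bovine serum, with several plates combined for each isolation of nuclei. The authors pooled 2 replicate libraries and gave each RefSeq entry either an activity in RPKmM, which is an RPKM taken over mappable bases, counted on the sense strand from 1 kb after the transcription start site to the transcript end, or the word Inactive where reads were not significantly denser than the background they took from gene deserts. With a single pooled value per entry, no spread between libraries could be computed and no difference below carries a test. No read counts are in the table and no counting interval was computed, so counting error is not covered, and the error given is the rounding of activities to 2 decimals, that is 0.005 RPKmM either way.

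Cyclin D with CDK4 or CDK6, and then cyclin E or A with CDK2, phosphorylate the retinoblastoma or pocket proteins (pRb, p107 and p130, encoded by Rb1, Rbl1 and Rbl2), which release E2F transcription factors that drive genes of DNA replication. The Cip/Kip inhibitors p21, p27 and p57 (Cdkn1a, Cdkn1b and Cdkn1c) bind complexes of cyclins and CDKs broadly, whereas the INK4 proteins p16, p15, p18 and p19 (Cdkn2a, Cdkn2b, Cdkn2c and Cdkn2d) bind CDK4 and CDK6 alone, and Cdkn2a also encodes p19ARF, an inhibitor of Mdm2, from another first exon. In the muscle lineage these genes are known for the lasting exit from the cell cycle: p21 and p57 rise as myoblasts differentiate, and pRb keeps myotubes out of S phase.

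Of the 13 member entries, 10 (76.9%) were called active, beside 70.2% of all entries, and 7 of the 9 listed members (77.8%) had an active entry, beside 68.7% of all symbols. The share of active members was thus close to that of the whole table. Fewer transcribing cells and less transcription per cell cannot be told apart in a pooled culture. Activity ran from a listed 0 for Cdkn1c to 5.63 RPKmM for Cdkn1b, and the highest activity was 10.1 times the lowest one above 0, that of Rbl2. In the table as a whole, active entries had a median of 0.87 RPKmM with quartiles of 0.22 and 1.99. Above this median lay 7 of the 10 active member entries, beside 49.7% of all active entries. These entries belong to 4 genes, since entries of Cdkn1a, Cdkn2c and Rbl1 overlap and are counted more than once, and by gene 4 of the 7 active members lay above the median, beside 49.8% of active symbols. An activity of at least 1 RPKmM was listed for the same entries, 7 of the 13, beside 32.3% of all entries.

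**Figure D1:**
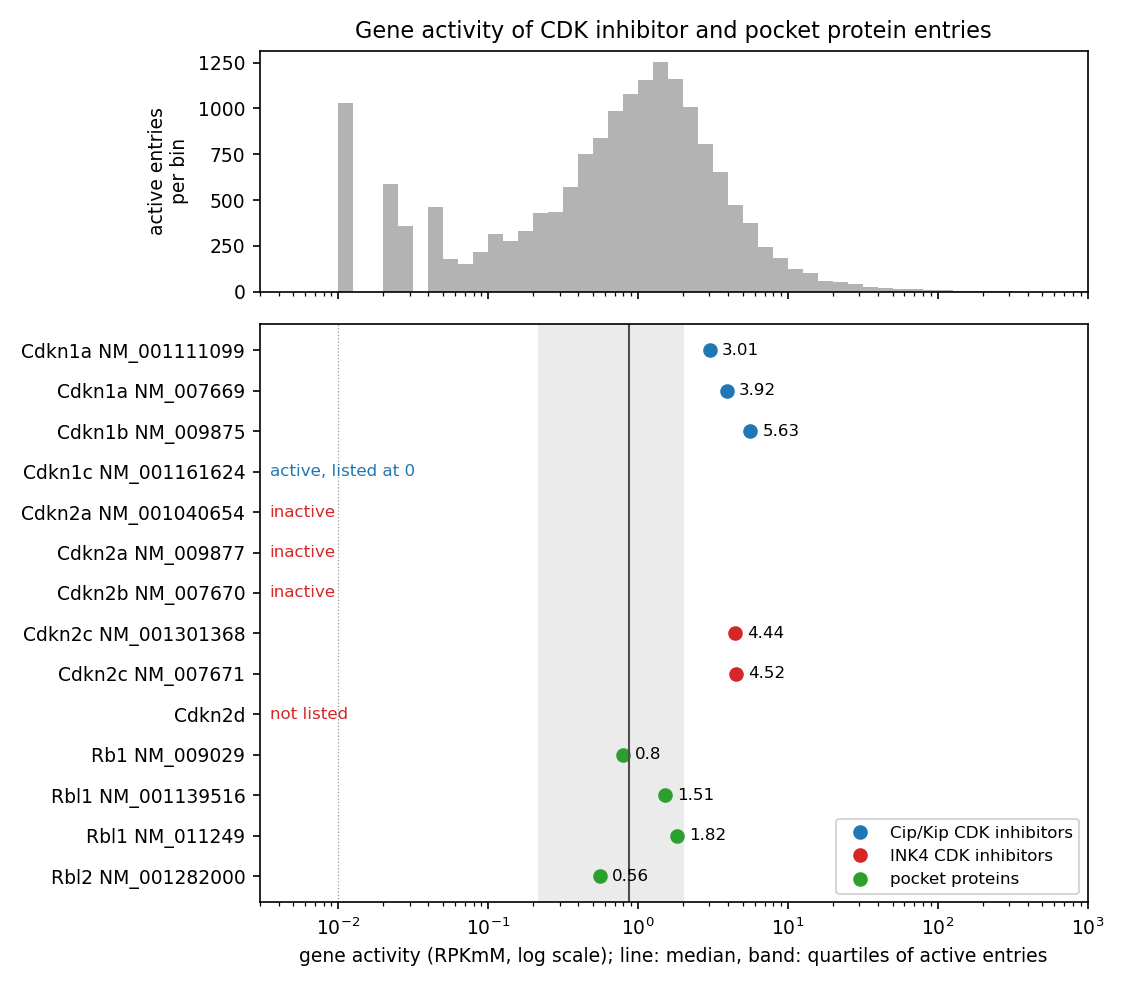
Gene activity in RPKmM on a log axis. The upper panel counts all active entries above 0 per bin, with gaps at the left where values are rounded to 2 decimals, and the lower panel shows the 13 member entries and Cdkn2d by family, with the median of active entries at 0.87 (line) and their quartiles (band). The Cdkn1a, Cdkn1b and Cdkn2c points lie to the right of the band, from 3.01 to 5.63, the pocket proteins lie within it, from 0.56 to 1.82, and entries with no value on this axis are written out.

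Cdkn1b encodes p27, an inhibitor that is held down in cycling cells largely by protein degradation, and it was the most active member. Its entry, NM_009875, was listed at 5.63 RPKmM, which was 6.47 times the median of active entries and above 93.6% of them. The gene lies at chr6:134870419-134875531 on the plus strand of mm9 and is 5113 bp long, so that its body beyond the first kilobase is only 4.113 kb. If every base of that body was mappable, the value stands for 23.2 RPM (reads on the gene body, scaled to library size as in RPKM but not to length), and for fewer where it was not. Of the nearest listed genes, Gpr19, an orphan receptor gene on the opposite strand with its nearest end 22475 bp upstream, was at 0.16 RPKmM at most, and Apold1, 56487 bp downstream on the same strand, was called inactive. The bases before the Cdkn1b start, at chr6:134870169-134870418 (plus strand), are shown because this promoter was among the richest in CpG of all the members while holding none of the motifs searched, and they carry no capitals.
Cdkn1b: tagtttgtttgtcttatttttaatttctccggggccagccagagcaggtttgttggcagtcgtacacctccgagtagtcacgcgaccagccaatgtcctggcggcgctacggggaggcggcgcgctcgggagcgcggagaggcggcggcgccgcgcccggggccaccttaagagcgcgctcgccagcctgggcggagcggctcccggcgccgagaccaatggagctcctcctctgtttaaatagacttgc

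Cdkn1a encodes p21, the Cip/Kip inhibitor best known as a target of p53 and as a gene that MyoD raises during muscle differentiation. Its entries were listed at 3.01 RPKmM for NM_001111099 and 3.92 RPKmM for NM_007669, above 84.6% and 89.3% of active entries. Both entries were therefore well above the upper quartile of the table, at 3.46 and 4.51 times the median. The gene spans chr17:29227924-29237667 on the plus strand, and RefSeq places starts 2790 bp apart. The files do not tie an entry to either start, and the entries overlap and share reads. Upstream on the same strand, Srsf3, a splicing factor gene, was at 16.77 RPKmM, 4.28 times the higher Cdkn1a entry, but it ends 47612 bp before Cdkn1a begins. Rab44, 34333 bp downstream on that strand, was at 0.05 RPKmM. The 250 bases before the first start, at chr17:29227674-29227923 (plus strand), are shown because they hold 2 matches to the p53 half-site (capitals), whose first bases lie 73 and 51 bases before the start. A pair or more of such half-sites was found in 0.359% of all RefSeq promoters, taken from 250 bases before to 50 bases after the start.
Cdkn1a start 1: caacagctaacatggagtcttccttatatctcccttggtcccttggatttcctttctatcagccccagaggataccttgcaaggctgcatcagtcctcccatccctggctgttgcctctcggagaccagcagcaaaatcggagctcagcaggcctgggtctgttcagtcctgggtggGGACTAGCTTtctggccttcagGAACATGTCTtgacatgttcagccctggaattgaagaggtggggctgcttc

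Cdkn1c encodes p57, an imprinted Cip/Kip inhibitor expressed from the maternal allele. Its entry, NM_001161624, was called active but listed at 0, which with rounding to 2 decimals stands for a value under 0.005 RPKmM. How the 0 arose cannot be told from the table. Such entries were rare: 154 of the 16957 active entries (0.908%) were listed at 0. The gene lies at chr7:150644255-150646955 on the minus strand and is 2701 bp long, which leaves a body of 1.701 kb. Over that body the listed value allows at most 0.00851 RPM, or fewer than 1 read on the gene body for every 117577895 reads, so the value is a bound, not a level. Leaving out this entry, 9 entries and 6 members were active. Of the genes on either side, both on the opposite strand, Slc22a18 was at 0.03 RPKmM and Kcnq1 was called inactive. In the Cip/Kip family, therefore, all 3 genes were called active, but p21 and p27 lay in the upper part of the table and p57 at its floor.

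The INK4 family was split. Cdkn2c, which encodes p18, was listed at 4.44 RPKmM for NM_001301368 and 4.52 RPKmM for NM_007671, above 91.0% and 91.2% of active entries and 5.10 and 5.20 times their median. Both entries were in the top 10% of active entries, where Cdkn1b was the only other member, making 3 in all. Among active entries of similar gene length none of the members was in the top 10%, with Cdkn2c above 86.8% and 87.1% and Cdkn1b above 89.9%, and among all entries, with inactive ones placed lowest, the higher Cdkn1a entry joined them at 92.5%. By its higher entry, Cdkn2c was 1.15 times as active as Cdkn1a, and Cdkn1b was 1.25 times as active as Cdkn2c. These steps exceed the rounding of the values (0.111% of the value for Cdkn2c), but whether they exceed the spread between libraries cannot be told. Cdkn2c lies at chr4:109333481-109339794 on the minus strand (6314 bp). Faf1, a gene on the opposite strand with its nearest end 9398 bp upstream, was at 1.43 RPKmM, and the nearest listed gene downstream on the strand of Cdkn2c, 4930522H14Rik, was inactive.

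In contrast to Cdkn2c, both Cdkn2a entries, NM_001040654 and NM_009877, and the single Cdkn2b entry, NM_007670, were called inactive. Cdkn2a encodes p16 and p19ARF and spans chr4:88920377-88940557 (20181 bp), and Cdkn2b, which encodes p15 and is a target of TGF-beta signalling, lies 11640 bp away at chr4:88952198-88956941 (4744 bp), both on the minus strand. All 3 inactive member entries thus belonged to a single cluster on chromosome 4, and Cdkn2c, elsewhere on that chromosome, was the most active of the listed INK4 genes. Beyond the cluster, Mtap, a methionine salvage gene on the opposite strand, was at 3.15 RPKmM, with its nearest end 93391 bp downstream of Cdkn2a. On the other side, Gm12610, 131597 bp away, was active at a listed 0. A call of inactive says that read density did not pass that test against gene deserts, not that there were no reads, and whether the cluster is intact in the DNA of these cells was not analysed here. Cdkn2d, which encodes p19INK4d, has no entry in the table and was not analysed here for activity. At its place on the genome, chr9:21092907-21095653 (minus strand, 2747 bp), Kri1 lies 491 bp downstream on the same strand and was at 1.78 RPKmM, and Ap1m2, 4247 bp upstream on that strand, was inactive.

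**Figure D2:**
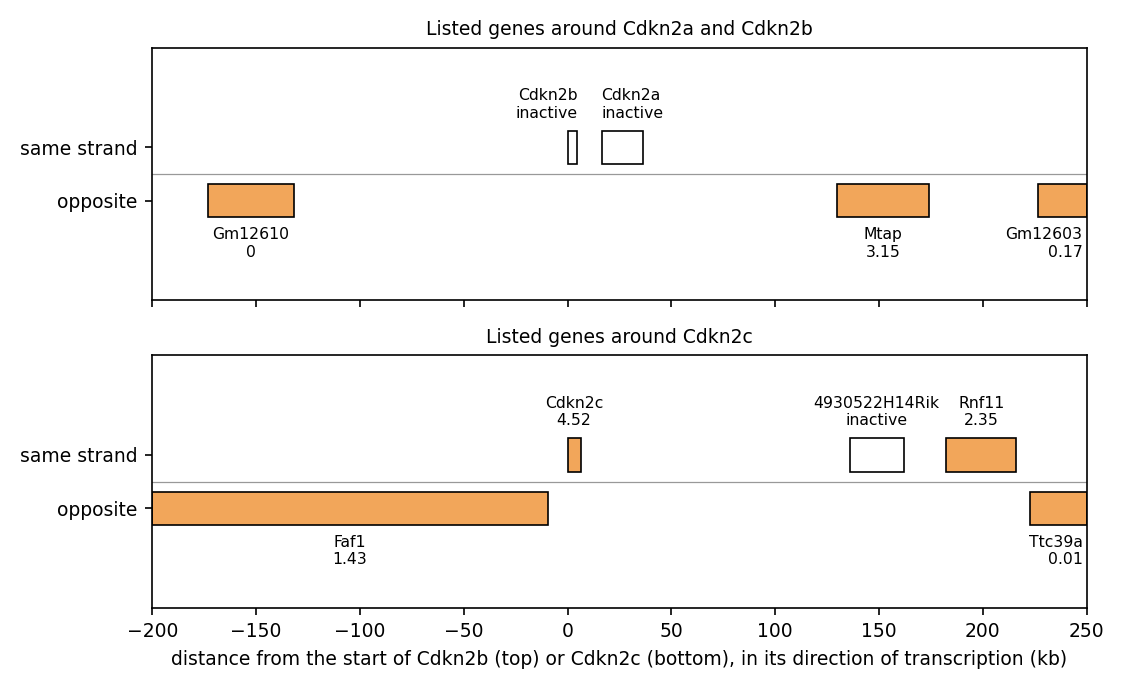
Genes of the table drawn to scale around Cdkn2b with Cdkn2a (top) and around Cdkn2c (bottom), by distance in kb from the start of Cdkn2b or Cdkn2c in the direction of its transcription. Filled boxes are active genes with their highest activity in RPKmM, open boxes are inactive genes, and boxes that reach the edge go on beyond it. Cdkn2a and Cdkn2b are open boxes side by side, with Mtap at 3.15 as the nearest active gene above 0, whereas Cdkn2c at 4.52 is a filled box close to Faf1 at 1.43.

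The sequences before the Cdkn2b start and the first Cdkn2a start, the one of p19ARF, are shown because neither inactive gene lacked CpG there. The first is chr4:88956942-88957191 and the second chr4:88940558-88940773, both given on the minus strand, and 34 bases next to the Cdkn2a start that lie in an exon of another transcript were left out. Capitals mark an E2F motif, TTCCCGC, whose first base is 98 bases before that Cdkn2a start.
Cdkn2b: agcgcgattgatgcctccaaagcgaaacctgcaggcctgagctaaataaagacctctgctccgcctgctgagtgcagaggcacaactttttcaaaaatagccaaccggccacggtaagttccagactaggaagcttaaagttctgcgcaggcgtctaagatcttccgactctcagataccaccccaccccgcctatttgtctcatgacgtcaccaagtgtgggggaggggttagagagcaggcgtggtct
Cdkn2a start 1: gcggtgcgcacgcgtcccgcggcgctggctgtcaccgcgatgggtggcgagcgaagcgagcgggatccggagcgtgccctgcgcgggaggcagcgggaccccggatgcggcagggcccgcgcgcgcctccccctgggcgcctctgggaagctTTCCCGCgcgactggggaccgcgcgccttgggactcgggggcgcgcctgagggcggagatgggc

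The pocket proteins were all active, and all at middling levels. Rbl1, which encodes p107 and is itself an E2F target in cycling cells, was listed at 1.51 RPKmM for NM_001139516 and 1.82 RPKmM for NM_011249, above 66.5% and 72.3% of active entries. Rb1, the retinoblastoma gene, was at 0.8 RPKmM (NM_009029), above 47.6% of active entries and thus just under their median. Rbl2, which encodes p130, the pocket protein of resting cells, was the least active of the family at 0.56 RPKmM (NM_001282000), above 38.8%. By the higher entry, Rbl1 was 2.28 times as active as Rb1 and 3.25 times as active as Rbl2, and Rb1 was 1.43 times as active as Rbl2. Rounding accounts for at most 0.893% of the Rbl2 value, so the order Rbl1, Rb1, Rbl2 holds against rounding, but its spread between libraries is unknown.

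Gene length sets how many reads stand behind these values. Rb1 spans chr14:73583480-73725629 on the minus strand, and its coding transcript is 130321 bp long with 27 exons, so that 0.8 RPKmM stands for up to 103 RPM. Cdkn1b, 7.04 times as active per kilobase, has up to 23.2 RPM. Rbl1 (chr2:156971629-157030270, minus strand, 22 exons) has up to 105 RPM at its higher entry, and Rbl2 (chr8:93593956-93647743, plus strand, 22 exons) up to 29.6. By this upper estimate, each pocket protein value rests on more reads than that of the more active Cdkn1b.

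Rb1 and Rbl2 were also the members that other listed genes overlap. Within Rb1, the lysophosphatidic acid receptor gene Lpar6 lies wholly on the opposite strand (2468 bp, 0.75 RPKmM). Rcbtb2, also on the opposite strand and at 0.98 RPKmM, overlaps the end of the annotated Rb1 gene by 24171 bp. Part of that overlap lies beyond the end of the Rb1 coding transcript. Aktip overlaps the end of Rbl2 by 11804 bp on the opposite strand, at 0.47 RPKmM. Activity was counted on the sense strand, so these reads belong to the other gene as far as strand was kept. On the strand of Rb1, Itm2b, 36408 bp upstream, was 13.6 times as active as Rb1, at 10.89 RPKmM. For Rbl2, Chd9 ends 15548 bp upstream on the same strand and was at 1.14 RPKmM. For Rbl1, Samhd1, 10627 bp downstream on the same strand, was at 1.29 RPKmM, and Rpn2 on the opposite strand was at 3.53 RPKmM. How far reads that run on past the end of an upstream gene add to a member was not tested.

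The bases before the Rbl1 start, chr2:157030271-157030520 (minus strand), are shown because Rbl1 was the most active pocket protein gene and its promoter held a match to another form of the E2F motif, TTCGCGC, whose first base is 17 bases before the start. That form was added to the search after the sequences were seen, and the forms first searched were absent. Capitals mark the TTCGCGC match and an E-box, CAGCTG, 183 bases before the start.
Rbl1: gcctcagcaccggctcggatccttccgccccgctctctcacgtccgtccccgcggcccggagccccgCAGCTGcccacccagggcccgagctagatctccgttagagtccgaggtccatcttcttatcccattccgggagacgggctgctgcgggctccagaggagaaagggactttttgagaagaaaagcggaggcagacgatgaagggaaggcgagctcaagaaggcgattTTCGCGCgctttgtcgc

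Among the members with several entries, Cdkn1a, Cdkn2c and Rbl1 had more than 1 activity above 0. The ratio of the higher to the lower entry was 1.30 for Cdkn1a, 1.21 for Rbl1 and 1.02 for Cdkn2c. In the 2274 symbols with several active entries above 0 the median ratio was 1.1, and the Cdkn1a ratio was above that of 68.7% of them, that of Rbl1 above 62.8% and that of Cdkn2c above 28.8%. None of the members mixed active and inactive entries.

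RefSeq promoters, from 250 bases before to 50 bases after each start, were found for 8 of the members, with 11 starts, and each of the 11 matched a single place in mm9 exactly. The ratio of observed to expected CpG was above 0.6 in 8 of the 11, beside 35.8% of all 32841 RefSeq promoters, which include those of genes without a listed activity. It was above 0.6 in 65.1% of the 13423 promoters of active symbols and 19.0% of the 5327 promoters of symbols with inactive entries alone. The ratio was highest for Cdkn1b (1.04, above 96.0% of promoters) and for the first Cdkn2a start (1.04, above 95.9%), an active and an inactive gene. Rbl1 had a ratio of 0.946, the first Cdkn2c start 0.823, the second Cdkn1a start 0.786, Rbl2 0.727, Cdkn2b 0.722 and Cdkn2d 0.681. Below 0.6 were the second Cdkn2c start at 0.553, the second Cdkn2a start, that of p16, at 0.442, and the first Cdkn1a start at 0.0892. The starts of Cdkn1a thus lay far apart in composition, with 54.7% G and C at the first and 64.7% at the second. By this measure and in this window, the inactive Cdkn2b and the first Cdkn2a start were not set apart from the active members. The second Cdkn2a start, at 0.442, was below every active start but the first of Cdkn1a. For Cdkn2b the result depends on the window. In the 500 bases before the start its ratio was 0.491, again below every active start but the first of Cdkn1a (0.163). The first Cdkn2a start stayed high there, at 1.16.

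**Figure D3:**
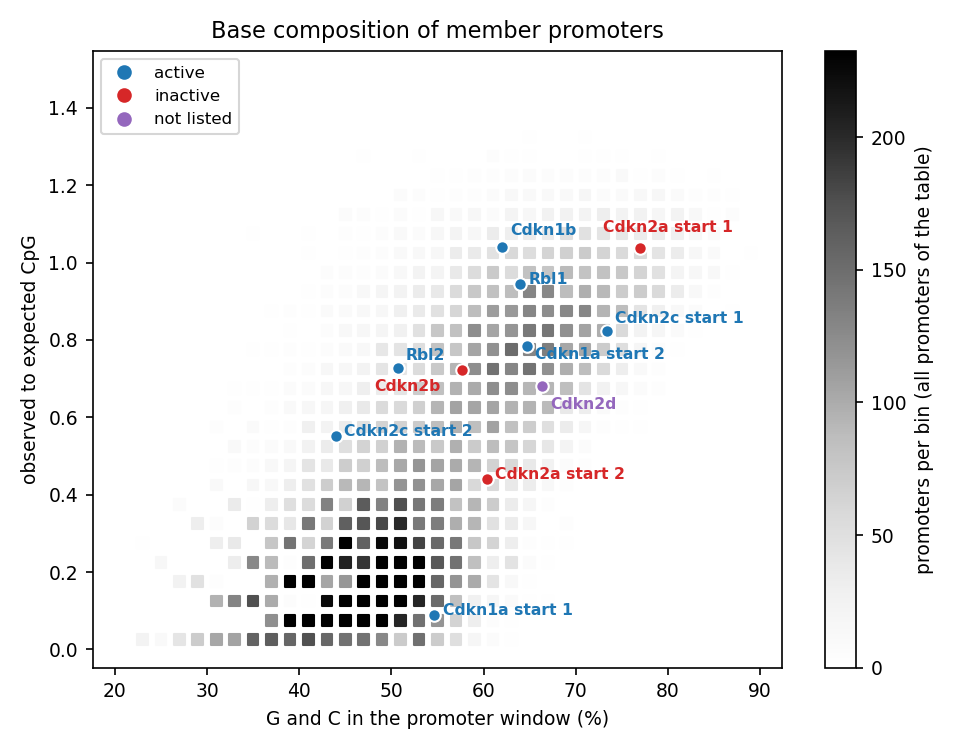
Share of G and C (horizontal axis, percent) and ratio of observed to expected CpG (vertical axis) in the 300-base promoter windows of the members, over the density of all RefSeq promoters, of listed genes or not (grey, promoters per bin). Point colour gives the call of the gene, not of the single start. Inactive Cdkn2a start 1 (1.04) lies level with active Cdkn1b (1.04), and Cdkn1a start 1 lies at the bottom with a ratio of 0.0892.

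Motifs were searched on both strands of these windows, and a match is a run of letters and not a binding site. The E2F motif, as TTCCCGC or TTGGCGC, was in 2 of the 11 member promoters, the first starts of Cdkn2a and Cdkn2c (25 bases before the latter), beside 6.81% of all promoters and 11.3% of those of active symbols. Its other forms, TTCGCGC and TTGCCGC, added after the sequences were seen, were in Rbl1 alone, beside 3.35% and 5.40%, in the same order here and below. The E-box CAGCTG was in 2, at the first Cdkn1a start (38 bases into the transcript) and in Rbl1, beside 16.3% and 15.9%. The p53 half-site was in 2, the first Cdkn1a start and Cdkn2d (102 bases before the start), beside 8.36% and 6.93%. The GC box CCCGCCC was in 5, with 5 matches in Cdkn2d, 3 at the first Cdkn2c start, 2 at the second Cdkn1a start and 1 each in Cdkn2b and at the second Cdkn2a start, beside 25.6% and 44.5%, so that the members' share was near that of active symbols. TATAAA was in none, beside 13.6% and 7.45%. Cdkn1b, Rbl2 and the second Cdkn2c start held none of these letters in this window.

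The targets of the inhibitors, the G1 cyclins and their kinases, were active in 9 of 10 cases, beside 68.7% of all symbols. Their median was 2.42 RPKmM, and 8 were above the median of active symbols, beside 49.8% of active symbols. Cdk4, the kinase bound by INK4 proteins, was at 5.56 RPKmM, 1.23 times Cdkn2c and 2.30 times its relative Cdk6 at 2.42. Cdk2, the main target of p27, was at 2.2 RPKmM, so that Cdkn1b was 2.56 times as active. Ccnd1, which encodes cyclin D1, was the most active of the list at 8.05 RPKmM, 3.04 times Ccnd2 and 5.55 times Ccnd3. Ccne1 was the least active at 0.86, and Ccna1, known for its role in the germ line, was inactive. Among the partners of pocket proteins, all 10 E2F and DP genes were active (median 2.525 RPKmM), from 0.65 for Tfdp2 to 6.66 for E2f3. E2f3, an activating E2F bound by pRb, was 8.33 times as active as Rb1, and E2f4, the repressive E2F of p107 and p130, at 4.03 RPKmM, was 2.21 times as active as Rbl1 and 7.20 times as active as Rbl2. The genes of the MuvB core and its Myb partners, which join p107 or p130 in the DREAM complex or B-Myb in cycling cells, were all active too, 7 of 7, with a median of 1.18 RPKmM, from 0.65 for Mybl2 to 2.83 for Rbbp4. These ratios compare transcription per kilobase, not amounts of protein.

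Genes that act on the inhibitors, and other targets of p53, were set beside the 68.7% of all symbols with an active entry. The SCF-Skp2 ligase, which marks p27 for degradation, had 5 of 5 genes active (median 3 RPKmM), from Cks1b at 0.44 to Skp1a at 5.71, with Skp2 itself at 2.14 and 3 for its entries. Known transcriptional regulators of CDK inhibitors and their p53 circuit were active in 14 of 14 cases (median 2.63 RPKmM), from Zbtb17, which encodes Miz-1, at 0.64 to Klf6 at 17.55. Trp53 was at 3.24 RPKmM, with Cdkn1a at 1.21 times that, and Mdm2, the ligase of p53, was 1.61 times as active as Cdkn1a at 6.32. Of 15 other p53 target genes, 14 were active, with a median of 2.395 RPKmM, from Fas at 0.07 to Gadd45a at 46.87, and Perp was inactive. Cdkn1a at 3.92 was above that median, and Gadd45a was 11.96 times as active. All 12 genes of Polycomb complexes, known repressors of the Cdkn2a and Cdkn2b cluster, were active, with a median of 1.075 RPKmM, from Cbx7 at 0.19 to Suz12 at 4.55, and Ezh2 was at 3.37. The inactive calls of the cluster thus stood beside active Polycomb genes, and a link between them was not tested.

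Downstream of the pocket proteins, all 22 E2F target genes were active, beside 68.7% of all symbols. Their median was 2.07 RPKmM, and 19 were above the median of active symbols, beside 49.8% of active symbols. They ran from Mybl2 at 0.65 to Cdk1 at 10.28. The list includes Rbl1, which at 1.82 was below the list's median. It is not independent of the other lists: Ccne1, Ccne2 and Ccna2 are also G1 cyclins, E2f1 is in the E2F list and Mybl2 in the MuvB list. Cdk1 and Pcna are also among the proliferation markers. All 8 proliferation markers were active, with a median of 5.235 RPKmM, from Pcna at 1.35 to Top2a at 21.3. The active Cdkn1b, Cdkn2c and Cdkn1a entries were thus found in cells in which cell cycle genes were transcribed, and the pooled value cannot tell whether single cells transcribed both.

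**Figure D4:**
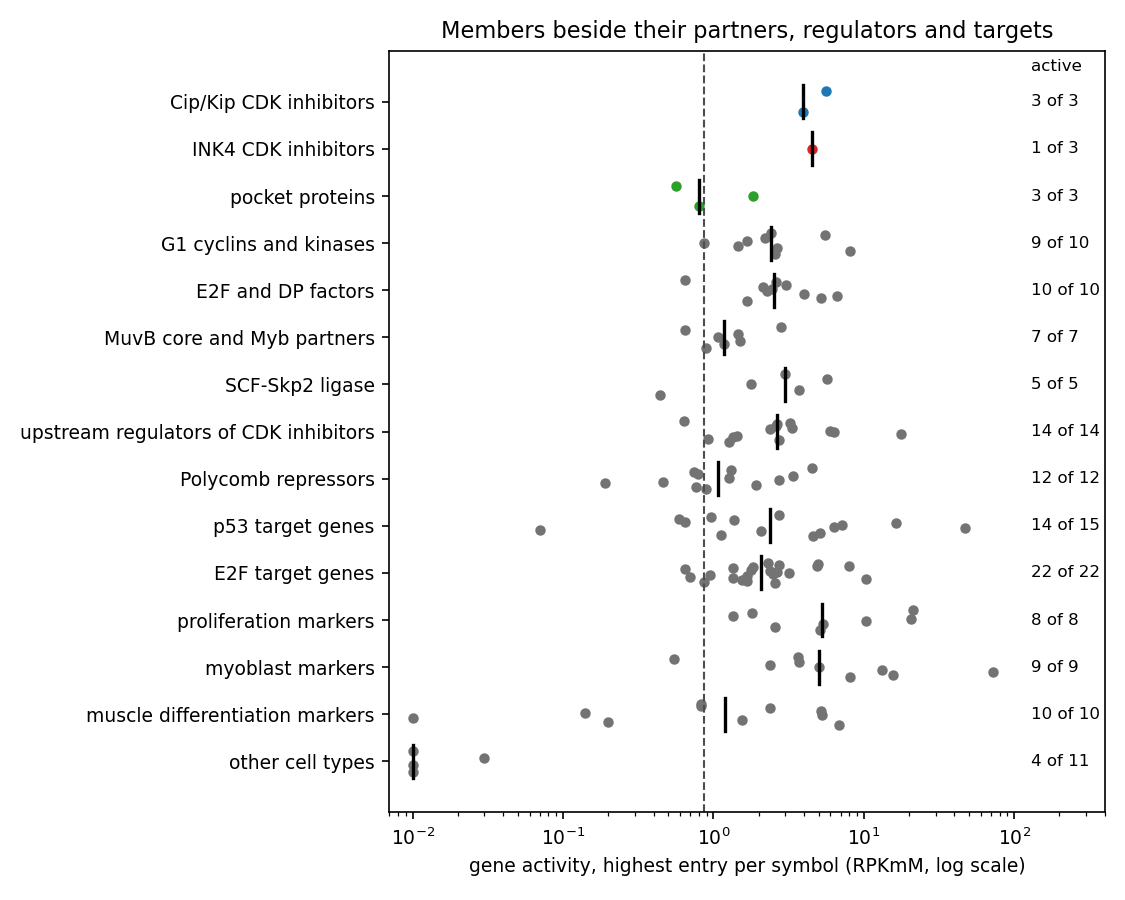
Activity of the highest entry of each active gene (RPKmM, log axis) by list, with the list median (black bar), the median of all active symbols (dashed line, 0.87) and the number of active genes of those listed (right). Members are in colour; Cdkn1c, active at a listed 0, has no point on the log axis. The medians of the Cip/Kip (3.92) and INK4 (4.52, from Cdkn2c alone) lists lie to the right of those of the E2F, G1 and SCF-Skp2 lists and to the left of those of proliferation (5.235) and myoblast markers (5.03), the Cip/Kip geometric mean with a pseudocount of 0.01 lies at 0.595 because Cdkn1c counts in it, and the median of the pocket proteins (0.8) lies left of the dashed line, where their geometric mean (0.935) lies right of it.

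The label of the cells was checked against marker genes. All 9 myoblast markers were active, from Pax7 at 0.55 RPKmM to the intermediate filament gene Des at 72.45, with Myod1 at 2.39. All 10 listed markers of muscle differentiation were active as well, with a median of 1.195 RPKmM, from Myh2 at 0.01 to Acta1 at 6.85, and Myog, an early marker, at 2.39. Whether differentiation genes and members were transcribed in the same cells cannot be told from pooled cells, and the part of differentiating cells in the member values was not tested. Of 11 listed markers of other cell types, 4 were active, none above 0.03 RPKmM (Krt14), and the others, among them Ptprc, Cdh5, Alb, Afp, Epcam and Adipoq, were inactive.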

How the data were processed

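The data analysed were a table of GRO-seq gene activity in untreated C2C12 myoblasts, which the authors made from 2 pooled replicate libraries. Per the submitters' processing notes, CASAVA 1.8 and Bowtie2 were used, with mouse build mm9. Reads that mapped to a single place were kept, those on repeats of rRNA or tRNA were dropped, and the authors deposited RPKmM, an RPKM over mappable bases of the gene body, rounded to 2 decimals. Because 7208 cells hold the word Inactive, the unit could not be tested on the column and rests on its name and on the methods. Pooling hides variation between libraries, the first kilobase is not counted, and depth is not given in the table.

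Activities were used as deposited. Ranks are the percent of the 16957 active entries with a lower activity, genes with several entries are represented by the highest, and lists by their count of active genes and median. Gene positions and neighbours came from the GENCODE vM1 annotation of mm9, in which 17421 of the 20128 symbols name exactly 1 gene. Promoter sequences came from RefSeq (a table on GRCm38.p6) and were placed in mm9 by exact match. Base positions count from the start, and the first base of a match is given. Bases in annotated exons were left out of the printed sequences, and Cdkn2c promoters are not printed because exons cover them. Named genes are all members, their nearest or overlapping listed genes, and the most active, least active and inactive genes of each list, and others named for their role in a sentence were chosen after their values were seen. A marker of another cell type is not reported here by name. Members and lists were chosen with earlier results of these data known. The alternatives were other entries per gene, other ranks, geometric means with pseudocounts of 0.01 and 0.001, activity thresholds of 0.01 and 0.1, inactive genes set to 0 for the lists outside the member families, and a promoter window of the 500 bases before the start. The other forms of the E2F motif were added after the sequences were seen. Rank and summary functions were tested on simulated data. Calculations were run in Python 3.11.15 with pandas 2.3.3, numpy 2.4.6 and scipy 1.17.1, and plots were drawn with matplotlib 3.10.9.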

Additional observations from a re-analysis of the deposited data

How the results depend on the processing

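No paired analysis was possible because the table holds a single pooled column of a single group, and for the same reason neither library could be left out. At a threshold of 0.01 RPKmM, 9 of the 10 active member entries stayed active, since Cdkn1c is listed at 0. With the lowest or the mean of the active Cdkn2c entries, the INK4 median was 4.44 or 4.48 RPKmM in place of 4.52. Inactive genes were not set to 0 for the member families, so this median leaves out the inactive Cdkn2a and Cdkn2b and describes Cdkn2c alone. The median of the markers of other cell types was 0 in place of 0.01 with inactive genes set to 0. With the 500 bases before the start, a window that leaves out the 50 bases after it, 4 member promoters held the p53 half-site in place of 2, 1 held TATAAA in place of 0, 3 held the E2F motif in place of 2, 4 the GC box in place of 5, and 2 the E-box in both. The promoters behind the counts changed: the E-box was lost at the first Cdkn1a start and gained at the first Cdkn2c start. The GC box was lost in Cdkn2b and at the second Cdkn2a start, and gained at the first Cdkn2a start. The share of all promoters with these motifs was not computed for that window. The CpG ratio fell below 0.6 there for Cdkn2b (0.491) and the second Cdkn1a start (0.543), and rose above it for the second Cdkn2c start (0.693). The Cip/Kip centre rests on how Cdkn1c is treated: the geometric mean was 0.595 RPKmM with a pseudocount of 0.01 and 0.280 with 0.001, against a median of 3.92, which puts it below the geometric means of the E2F, G1 and SCF-Skp2 lists with a pseudocount of 0.01 (2.60, 2.47 and 2.19), and that of the pocket proteins was 0.935, above the median of active symbols, in place of a median of 0.8 below it. Ranks of the active member entries ran from 29.8% to 95.5% among all entries with inactive ones lowest, which raises every rank by construction, from 0% to 93.6% among 1 entry per symbol, and from 0% to 89.9% among active entries of similar gene length. For Cdkn1c the rounding of the table gives a bound and no level. Without values per library, no order among members could be set against experimental error.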
